A study of Mus musculus with 9 samples.

Results

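Guca2a, Guca2b, Gucy2c and Prkg2, the genes of guanylin, uroguanylin, their shared receptor and a kinase that acts after it, were followed in mouse large intestine with and without reduced expression of the RNA and DNA helicase gene Dhx9. They are 4 of the 24011 genes on the arrays, taken by their Entrez Gene numbers, and each had 1 probe set. All 4 passed the filter on low values that left 16808 genes for testing. They were chosen with results of these same arrays known, so their levels and differences are given as a description, without p-values.

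The mice were C57BL/6 and carried rtTA, an activator that works only with doxycycline, together with a doxycycline-induced short hairpin RNA. In 3 arrays the hairpin was DHX9-1271, in 3 it was DHX9-837, and in 3 control arrays it was FLuc.1309, which targets firefly luciferase, a gene that mice lack. All mice, controls included, drank doxycycline at 1 mg/ml with 5% sucrose for 14 days from 4 weeks of age. The labels name neither the promoter that drives rtTA nor whether the arrays of a group came from separate animals, so the error values measure the spread between these samples, which may be technical.

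Guanylin and uroguanylin are small peptides that the gut epithelium releases into the lumen. In rodents guanylin is most abundant in the colon and uroguanylin in the small intestine. Both bind guanylate cyclase C, the product of Gucy2c, which sits in the apical membrane of epithelial cells and makes cyclic GMP. Cyclic GMP activates the membrane-bound kinase encoded by Prkg2, and in mouse and rat gut this leads to chloride and bicarbonate secretion through the channel encoded by Cftr and to less sodium uptake by the exchanger encoded by Slc9a3.

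Guca2a and Guca2b lie next to each other on mouse chromosome 4, with no other protein-coding gene between them, Guca2a on the plus strand and Guca2b on the minus strand. Gucy2c is on chromosome 6 and Prkg2 on chromosome 5. The 250 bases before the start of each peptide gene are shown because these neighbours differed in opposite directions in DHX9-837. They come from RefSeq, build GRCm38.p6, at chr4:119637482-119637731 (plus strand) for Guca2a and chr4:119658946-119659195 (minus strand) for Guca2b, written 5′ to 3′ on the gene's own strand. Capitals mark matches to AGATAA, which GATA factors bind, on either strand.
Guca2a: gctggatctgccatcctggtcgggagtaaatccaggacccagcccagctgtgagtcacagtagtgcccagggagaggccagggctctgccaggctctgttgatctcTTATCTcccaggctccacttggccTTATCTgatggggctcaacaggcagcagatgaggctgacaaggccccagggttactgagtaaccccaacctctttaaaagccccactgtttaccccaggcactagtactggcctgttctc
Guca2b: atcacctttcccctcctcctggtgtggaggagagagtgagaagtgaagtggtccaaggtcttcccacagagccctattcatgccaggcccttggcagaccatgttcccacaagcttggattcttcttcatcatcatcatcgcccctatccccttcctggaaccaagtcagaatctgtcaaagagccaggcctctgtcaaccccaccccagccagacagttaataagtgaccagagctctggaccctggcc
The Guca2a window held 2 matches to AGATAA, both on the other strand, and the Guca2b window held 0. Neither window held TTTATG, a motif of the CDX factors, on either strand. Neither held CAAAGT, a core motif of HNF4, and no matches overlapped. Of 32851 windows of the same length before RefSeq gene starts, 9.99% held the GATA motif on either strand. The CDX motif was in 10.8% of them and the HNF4 motif in 12.6%. The motif letters were chosen with both sequences in view. Such a match is a description of the letters and not a measured binding site. Of the 4 genes, 2 had an entry in the promoter table; Gucy2c and Prkg2 had none.

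Dhx9 was lower in all arrays of both hairpin groups. Its log2 level averaged 8.22 ± 0.045 in DHX9-1271, 8.20 ± 0.017 in DHX9-837 and 9.24 ± 0.072 in control (SD, n = 3 each). Array medians lay between 6.25 and 6.29, and pairs of arrays from 1 group correlated across genes at 0.979 to 0.995. The epithelial and colonic character of the samples was read from markers. Mean log2 levels of 8 general epithelial genes were 10.82 to 10.9 in DHX9-1271, 10.87 to 10.94 in DHX9-837 and 10.79 to 10.82 in control. Car1, a colonocyte carbonic anhydrase, had log2 levels of 13.07 to 13.15 in DHX9-1271, 13.11 to 13.15 in DHX9-837 and 13.03 to 13.12 in control. It was 1 of 15 surface colonocyte genes listed, of which 6 fell in both hairpins against control, where 5.33% of all genes fell. Among posterior Hox genes, Hoxd13 and Hoxd12 fell below the level filter, 4 others passed it and 0 were called by limma (0 at an unadjusted p under 0.05 in both hairpins against control). Genes of small intestinal enterocytes stood out on some arrays. The mean log2 level of Sis (sucrase-isomaltase), Fabp6 (the ileal bile acid carrier) and Apoa1 was 9.17 in DHX9-837 replicate 1, 10.44 in DHX9-837 replicate 3 and 9.08 in control replicate 2. On the other 6 arrays it was 4.90 to 7.80. Some differences of the 4 genes, and some of the calls that ended without these 3 arrays, are given below with and without them. Other calls given below rest on all arrays and did not all hold without these 3. Leaving them out, a setting chosen after the data were seen, leaves 1 array in DHX9-837, which is then assumed to vary like the other groups. In that setting 2.0% of all genes tested rose and 2.06% fell with DHX9-837, so fewer calls were made over all genes as well.

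Guanylin was lower with both hairpins by nearly the same amount. Guca2a had log2 levels of 12.26, 12.25 and 12.32 in DHX9-1271, 12.27, 12.33 and 12.22 in DHX9-837, and 12.56, 12.56 and 12.53 in control. Every hairpin array lay below every control array, as in 6.73% of all genes tested, and the arrays of both hairpins overlapped each other. The log2 fold was -0.27 (SE 0.046) for DHX9-1271 against control and -0.28 (SE 0.046) for DHX9-837 against control, a level about 1.21-fold lower in each. Between the hairpins, DHX9-837 minus DHX9-1271, it was -0.0058 (SE 0.046). The highest value of any probe set on any array was 13.39, so Guca2a lay near the top of the measured range. In bulk tissue, fewer cells of a type and less RNA per cell cannot be told apart.

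Uroguanylin was higher with DHX9-837, and its DHX9-1271 arrays lay inside the control range. Guca2b had log2 levels of 9.97, 10.07 and 9.99 in DHX9-1271, 10.96, 10.76 and 11.43 in DHX9-837, and 9.51, 10.12 and 9.85 in control. All 3 DHX9-837 arrays lay above all 6 others. Of all genes tested, 17.1% had every DHX9-837 array above every control array, and 9.37% had every DHX9-837 array above every DHX9-1271 array. The log2 fold was 1.22 (SE 0.18) for DHX9-837 against control, a 2.34-fold higher level, and 0.18 (SE 0.18) for DHX9-1271 against control. Between the hairpins it was 1.04 (SE 0.18), DHX9-837 minus DHX9-1271. The order of the group means was DHX9-837, DHX9-1271 and control, and the spreads of DHX9-1271 and control overlapped. A long noncoding RNA gene, Gm35761, overlaps the start of Guca2b in the RefSeq table, and the sources used here give no probe positions.

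The receptor gene was slightly lower with DHX9-837. Gucy2c had log2 levels of 10.82, 10.85 and 10.83 in DHX9-1271, 10.64, 10.72 and 10.63 in DHX9-837, and 10.89, 10.77 and 10.92 in control. The DHX9-837 arrays lay below all the others, and of all genes tested 14.3% had every DHX9-837 array below every control array and 12.6% below every DHX9-1271 array, while the DHX9-1271 arrays fell between the lowest and the highest control array. The log2 fold against control was -0.20 (SE 0.053) for DHX9-837, or 1.15-fold lower, and -0.03 (SE 0.053) for DHX9-1271. Between the hairpins, DHX9-837 minus DHX9-1271, it was -0.17 (SE 0.053).

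The kinase gene was higher with DHX9-1271 and less uniformly so with DHX9-837. Prkg2 had log2 levels of 7.51, 7.51 and 7.56 in DHX9-1271, 7.36, 7.20 and 7.57 in DHX9-837, and 7.002, 6.83 and 7.23 in control. The DHX9-1271 arrays lay above every control array, as in 15.4% of all genes tested. Replicate 2 of DHX9-837 lay below control replicate 3, so those groups overlapped. The log2 fold against control was 0.50 (SE 0.11), or 1.42-fold, for DHX9-1271 and 0.35 (SE 0.11), or 1.28-fold, for DHX9-837. The Prkg2 fold without the 3 arrays highest in small intestine markers was 0.082 (SE 0.107) for DHX9-837 and 0.25 (SE 0.08) for both hairpins, against 0.43 (SE 0.099) for both hairpins with all arrays. The hairpins overlapped each other, with a difference of -0.15 (SE 0.11), DHX9-837 minus DHX9-1271.

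**Figure D1:**
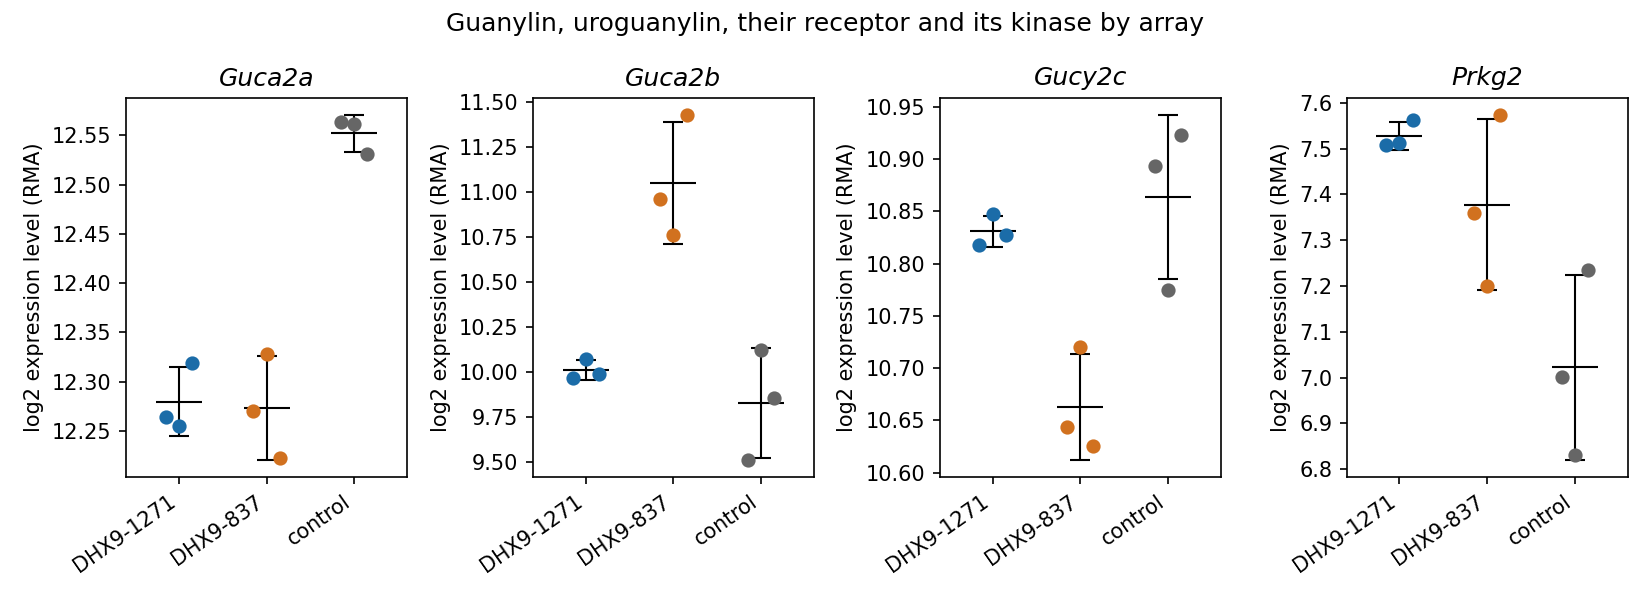
Log2 expression level (RMA, y axis, with its own range in each panel) of the 4 genes on the 9 arrays, grouped on the x axis by hairpin; points are arrays, the long bar is the group mean and the whiskers are 1 SD (n = 3). Guca2a is lower in both hairpin groups, Guca2b stands apart in DHX9-837 with levels of 10.76 to 11.43, and the hairpin and control arrays of Prkg2 overlap only between DHX9-837 and control.

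By the limma fit over all 16808 genes at an adjusted p under 0.05, 2 of the 4 genes were called in DHX9-1271 against control (Guca2a down, Prkg2 up), where 4.41% of all genes tested were called, 2.83% up and 1.58% down. In DHX9-837 against control 3 of the 4 were called (Guca2b up, Guca2a and Gucy2c down), against 15.6% of all genes, and in both hairpins against control 3 of the 4 (Guca2b and Prkg2 up, Guca2a down), against 13.5%. Between the hairpins Guca2b was called, against 1.90% of all genes. Since the choice of the genes used these contrasts, these counts are descriptive. The comparisons of each hairpin with control share the 3 control arrays.

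The genes around the peptide pair were read for comparison. The 3 protein-coding neighbours before Guca2a in chromosome order are Rimkla, Frg2f1 and Foxj3, and the 3 after Guca2b are Hivep3, Edn2 and Foxo6. Of these 6 genes Frg2f1 fell with DHX9-837 (log2 fold -0.40, SE 0.095, limma adjusted p = 0.024), where 6.91% of all genes tested fell. The other 5 were not called in DHX9-837, with log2 folds of -0.17 (Foxo6) to 0.094 (Foxj3). With DHX9-1271 0 of the 6 were called by limma, with log2 folds of -0.17 (Frg2f1) to 0.028 (Foxj3). Edn2, which encodes endothelin 2, a peptide of the gut epithelium, had folds of -0.12 (SE 0.050) with DHX9-1271 and -0.04 (SE 0.050) with DHX9-837.

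**Figure D2:**
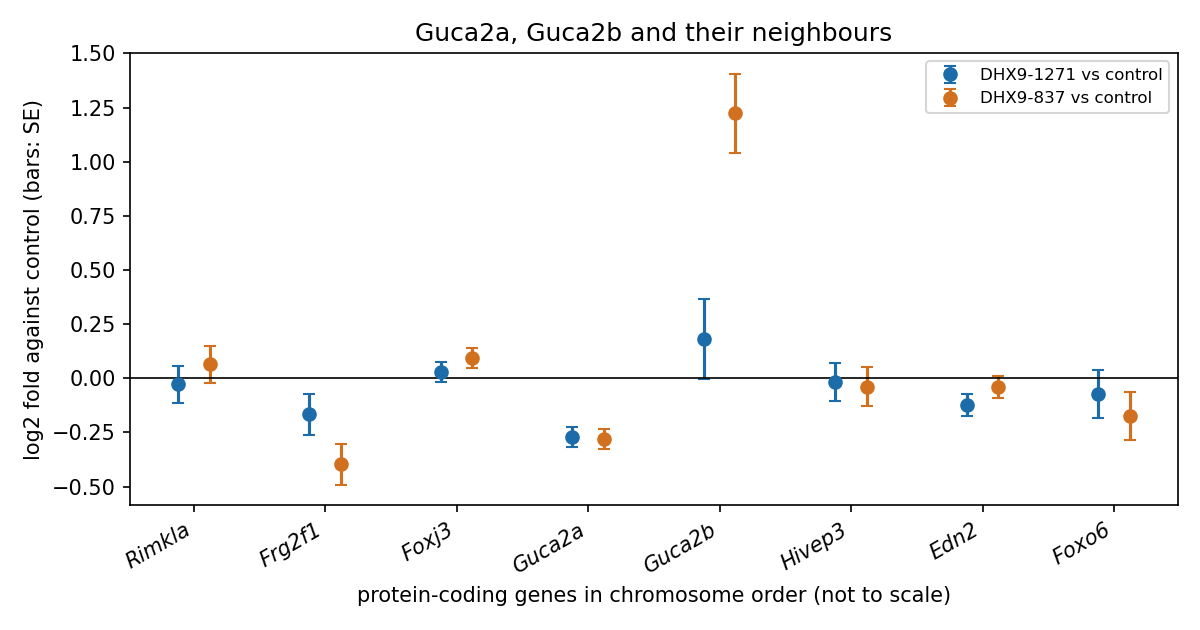
Log2 fold against control (y axis) for Guca2a, Guca2b and the 3 protein-coding genes on each side, in chromosome order and not to scale (x axis); points are the fold for DHX9-1271 and DHX9-837 and bars are the SE. Guca2b with DHX9-837 stands at 1.22, and the other 6 genes lie between -0.40 and 0.094.

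The small intestine markers were set beside Guca2b because uroguanylin is abundant in that part of the gut. The mean log2 level of the 12 markers was 6.85 to 7.52 in DHX9-1271, 7.30 to 8.77 in DHX9-837 and 7.22 to 8.36 in control, so the groups overlapped. Sis had log2 levels of 6.49, 4.81 and 6.20 in DHX9-1271, 9.04, 5.37 and 10.46 in DHX9-837, and 4.60, 8.79 and 7.46 in control. The DHX9-837 array with the highest Guca2b, replicate 3, was also the highest for Sis, Fabp6 and Apoa1. DHX9-837 replicate 2 was low in Sis (5.37) and Fabp6 (5.05), and its Guca2b level of 10.76 was above every DHX9-1271 and control array. The markers did not all run alike on that array: Ada stood at 7.19, also above every DHX9-1271 and control array, and the mean of the 12 markers, 7.30, was above that of control replicate 1 and DHX9-1271 replicate 2. Control replicate 2, with Sis at 8.79, had Guca2b at 10.12, its highest level on any control or DHX9-1271 array. Guca2b and Sis ran in the same order among the control arrays and among the DHX9-837 arrays. Among the DHX9-1271 arrays their orders were opposite. The part of small intestinal cells in the Guca2b levels was not tested. Without the 3 arrays highest in Sis, Fabp6 and Apoa1, the Guca2b difference for DHX9-837 against control was 1.08 (SE 0.15). In that setting the difference between the hairpins was 0.75 (SE 0.14).

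Of the 12 small intestine markers, 1 was called up and 1 down in DHX9-837 against control, where 8.67% of all genes rose and 6.91% fell. Ada, which encodes adenosine deaminase, rose (log2 fold 0.94, SE 0.26, limma adjusted p = 0.041). Alpi, an intestinal alkaline phosphatase gene, fell (-0.62, SE 0.16, limma adjusted p = 0.0294). Between the hairpins limma called 0 of the 12 markers (4 up at an unadjusted p under 0.05). There 11 of the 12 were higher in DHX9-837 than in DHX9-1271, where 8108 of all 16808 genes were higher. Their median log2 difference was 0.37, against -0.004 over all genes. In both hairpins against control Alpi (-0.66, limma adjusted p = 0.0145) and Fabp2, the intestinal fatty acid binding protein gene (-0.23, limma adjusted p = 0.0408), fell, where 5.33% of all genes fell, and Gata4 was not called (-0.26, limma adjusted p = 0.119). Without the 3 arrays highest in Sis, Fabp6 and Apoa1, Ada kept its call with DHX9-837 (0.66, SE 0.11, limma adjusted p = 0.0437) and Alpi did not (-0.63, SE 0.24, limma adjusted p = 0.229).

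**Figure D3:**
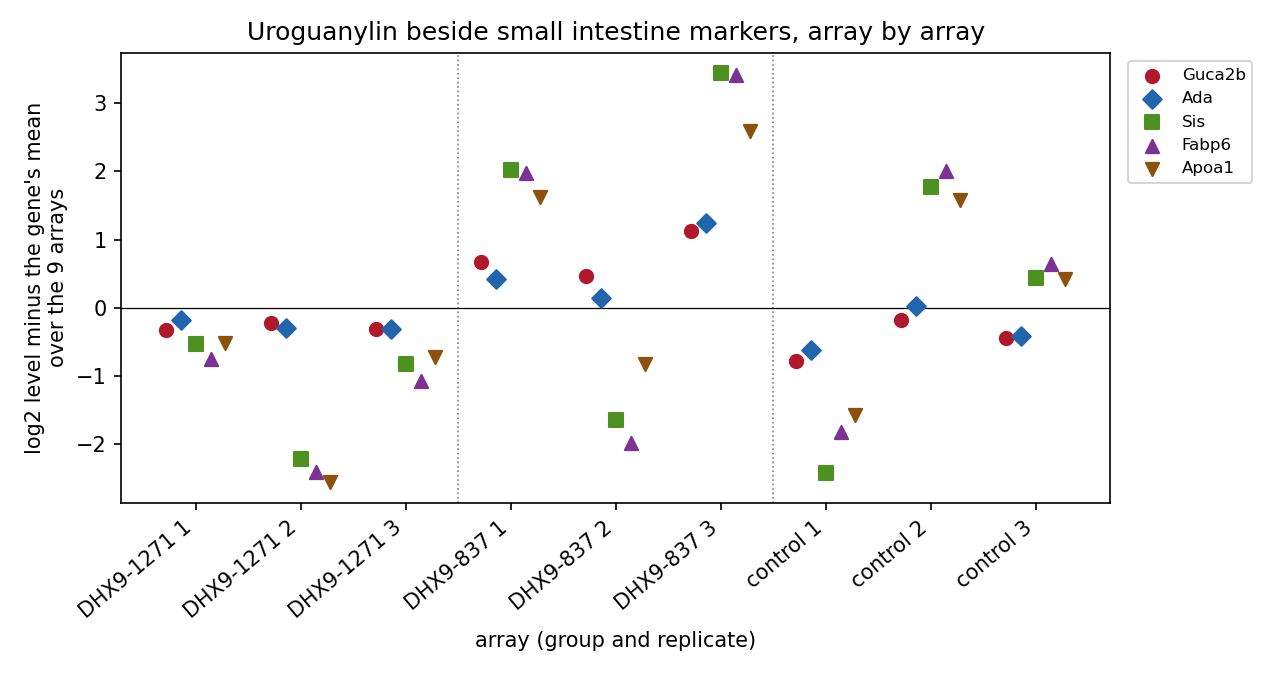
Log2 level minus each gene's own mean over the 9 arrays (y axis) for Guca2b and the small intestine markers Ada, Sis, Fabp6 and Apoa1 on every array (x axis, group and replicate); symbols are genes. Guca2b lies above its mean in the 3 DHX9-837 arrays, while Sis, Fabp6 and Apoa1 lie below theirs in DHX9-837 replicate 2.

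For each of the 4 genes, the 3 genes of most similar pattern were taken, out of 14365, by the smallest root mean square difference over the 9 arrays after each gene was centred on its own mean. For Guca2b they were Ada (0.174), Ms4a12 (0.222) and Tnfrsf23 (0.223), on the log2 scale, while Guca2b itself varied by 0.581 about its mean. Ada had log2 levels of 7.47, 7.19 and 8.29 in DHX9-837, 6.86, 6.75 and 6.74 in DHX9-1271, and 6.43, 7.07 and 6.63 in control. Ada thus shared the high DHX9-837 arrays, replicate 3 above all. Ms4a12, a membrane protein gene known from human colonocytes, differed from control by 1.41 with DHX9-837 and 0.68 with DHX9-1271. Tnfrsf23, which encodes a mouse decoy receptor for the death ligand TRAIL, differed by 0.91 with DHX9-837 and 0.09 with DHX9-1271.

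For Prkg2 the nearest genes were Bst2 (0.057), Lgals9 (0.103) and Sass6 (0.105), against a variation of 0.249 in Prkg2 itself. Bst2, which encodes the interferon-induced antiviral protein tetherin, had log2 levels of 9.73, 9.63 and 9.72 in DHX9-1271, 9.39, 9.31 and 9.70 in DHX9-837, and 9.23, 8.93 and 9.37 in control. As in Prkg2, replicate 3 was the highest of the DHX9-837 arrays and replicate 2 the lowest of the controls. Lgals9 encodes galectin 9 and Sass6 a centriole assembly protein. For Guca2a the nearest were the chromatin remodeller gene Chd3 (0.0397), Mroh1 (0.0437) and Txndc15 (0.0458), against 0.134 in Guca2a. For Gucy2c they were the sphingosine phosphate lyase gene Sgpl1 (0.0262), the phosphofructokinase gene Pfkl (0.0276) and the zinc finger gene Zkscan14 (0.0282), against 0.0986. Gucy2c moved little, so genes that also moved little come near it by this measure.

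The rest of the pathway was followed in a list of 52 genes: other ligands and guanylyl cyclases, nitric oxide synthases, cyclic GMP kinase partners, phosphodiesterases, exporters, scaffolds, ion transporters and transcription factors. Of these, 50 had a named probe set, 5 fell below the level filter and 45 were tested. With DHX9-837 against control 6 rose and 7 fell by limma, 28.9% of the list beside 15.6% of all genes tested. With DHX9-1271 4 rose and 1 fell, 11.1% of the list beside 4.41% of all genes. In both hairpins against control 5 rose and 5 fell, 22.2% beside 13.5%. The median log2 fold of the list was 0.067 for DHX9-1271, 0.054 for DHX9-837 and 0.052 for both hairpins, against 0.0057, -0.0012 and 0.0011 over all genes. In DHX9-1271 the calls changed when 1 array was left out: without DHX9-1271 replicate 1, 2 or 3 the list had 0 genes up and 0 down. They numbered 2 up without control replicate 1, control replicate 3 or DHX9-837 replicate 1. There were 0 down without control replicate 1 or 3, and 2 down without control replicate 2. Shares over all genes are not given for the fits without 1 array. A loss in the list alone therefore cannot be told from fewer calls over all genes. Without the 3 arrays highest in small intestine markers, 1 gene rose with DHX9-837 (Abcc4) and 4 fell (Pde9a, Slc9a2, Slc26a3 and Kcnq1). The count down in that comparison was 4 without DHX9-837 replicate 1 or 2, and in both hairpins it was 3 without control replicate 2 or DHX9-1271 replicate 3.

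Of the ion transporters that cyclic GMP signalling acts on or works beside, 3 of 11 rose and 3 fell with DHX9-837, where 8.67% of all genes rose and 6.91% fell. Cftr, the secretory chloride channel gene, had log2 levels of 10.10, 10.001 and 10.14 in DHX9-1271, 10.10, 10.04 and 10.07 in DHX9-837, and 9.81, 9.59 and 9.80 in control. All hairpin arrays lay above all control arrays, as in 10.7% of all genes tested. Cftr rose with DHX9-1271 (log2 fold 0.34, SE 0.067, limma adjusted p = 0.0278) and with DHX9-837 (0.34, SE 0.067, limma adjusted p = 0.0111). Slc12a2, which loads chloride into secreting cells across the basolateral membrane, rose as well, by 0.24 with DHX9-1271 (limma adjusted p = 0.0379) and 0.33 with DHX9-837 (limma adjusted p = 0.00337), and 8 of the 9 fits without 1 array did not keep its call with DHX9-1271. Without the 3 arrays highest in small intestine markers, neither Cftr (0.23, limma adjusted p = 0.173) nor Slc12a2 (0.26, limma adjusted p = 0.0816) was called with DHX9-837. With DHX9-1271 the folds in that setting were 0.27 for Cftr and 0.21 for Slc12a2, and neither call held. Fewer calls with DHX9-1271 were made there over all genes as well.

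Genes of electroneutral salt absorption did not move alike. Slc26a3, the chloride-bicarbonate exchanger of surface colonocytes, had log2 levels of 12.14, 12.07 and 12.17 in DHX9-1271, 11.74, 11.84 and 11.74 in DHX9-837, and 12.44, 12.33 and 12.43 in control. It fell with DHX9-1271 (-0.27, SE 0.054, limma adjusted p = 0.0297) and further with DHX9-837 (-0.63, SE 0.054, limma adjusted p = 0.000303). The hairpins differed by -0.36 (limma adjusted p = 0.0196). The Slc26a3 call with DHX9-1271 ended in 5 of the 9 fits without 1 array. Its fold with DHX9-1271 was -0.31 without the 3 arrays highest in small intestine markers. Slc9a2, a sodium-proton exchanger gene, fell with DHX9-837 (-0.61, SE 0.057, limma adjusted p = 0.000376) and had a fold of -0.24 with DHX9-1271 (limma adjusted p = 0.0504). Slc9a3, the sodium-proton exchanger that the Prkg2 kinase restrains, went the other way. It had log2 levels of 9.06, 8.52 and 8.89 in DHX9-1271, 9.47, 9.85 and 9.47 in DHX9-837, and 8.69, 9.09 and 8.80 in control, and rose with DHX9-837 (0.74, SE 0.16, limma adjusted p = 0.0167). The difference in Slc9a3 between the hairpins was 0.77 (limma adjusted p = 0.0544), which missed the threshold. The Slc9a3 call with DHX9-837 ended without control replicate 1, control replicate 3 or DHX9-837 replicate 2, and without the 3 arrays highest in small intestine markers (1.10, SE 0.22, limma adjusted p = 0.0646). Kcnq1, a basolateral potassium channel gene, fell with DHX9-837 (-0.24, limma adjusted p = 0.035), a call that 7 of the 9 fits without 1 array did not keep.

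Best2 and Slc4a4 also differed between the hairpins. Best2, a bestrophin chloride and bicarbonate channel gene of goblet cells, rose with DHX9-1271 (0.30, SE 0.056, limma adjusted p = 0.022). That call was not kept by 4 of the 9 fits without 1 array. Best2 had a fold of -0.05 with DHX9-837, and differed between DHX9-837 and DHX9-1271 by -0.35 (limma adjusted p = 0.0218). Slc4a4, a basolateral sodium bicarbonate cotransporter gene, had folds of 0.22 with DHX9-1271 (limma adjusted p = 0.104) and -0.14 with DHX9-837 (limma adjusted p = 0.195), and the hairpins differed by -0.36 (limma adjusted p = 0.0345). Between the hairpins, DHX9-837 minus DHX9-1271, 0 pathway genes rose by limma (4 at an unadjusted p under 0.05) and 5 fell, beside 0.696% and 1.21% of all genes tested. That count of falls became 0 without any 1 of the DHX9-1271 arrays or without DHX9-837 replicate 1. It was 2 without DHX9-837 replicate 2 and 1 without DHX9-837 replicate 3. Such drops cannot be told from fewer calls over all genes. Without the 3 arrays highest in small intestine markers the hairpins differed by -0.45 in Best2 and -0.48 in Slc4a4. The calls did not hold in that setting, where fewer calls were made over all genes as well.

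Of the enzymes and pumps that remove cyclic GMP, both exporter genes rose and 2 of 10 phosphodiesterase genes fell with DHX9-837, where 8.67% of all genes rose and 6.91% fell. Abcc4, an exporter of cyclic nucleotides, had log2 levels of 7.04, 7.16 and 7.13 in DHX9-1271, 7.38, 7.68 and 7.45 in DHX9-837, and 6.76, 6.73 and 6.88 in control. No arrays of different groups overlapped. Of all genes tested, 15.4% had every DHX9-1271 array and 17.1% every DHX9-837 array above every control array. In 9.37% every DHX9-837 array lay above every DHX9-1271 array. Abcc4 rose with DHX9-837 (0.71, SE 0.082, limma adjusted p = 0.000903) and had a fold of 0.32 with DHX9-1271 (limma adjusted p = 0.0659). Abcc5, a second such exporter, rose with DHX9-1271 (0.26, SE 0.059, limma adjusted p = 0.0477) and DHX9-837 (0.32, SE 0.059, limma adjusted p = 0.00762), and 8 of the 9 fits without 1 array did not keep its call with DHX9-1271. Abcc5 was not called with DHX9-837 without the 3 arrays highest in small intestine markers (0.35, limma adjusted p = 0.0693).

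Pde9a, a phosphodiesterase specific for cyclic GMP, had log2 levels of 9.61, 9.57 and 9.65 in DHX9-1271, 9.34, 9.36 and 9.34 in DHX9-837, and 9.77, 9.77 and 9.82 in control. It fell with DHX9-837 (-0.44, SE 0.042, limma adjusted p = 0.000434) and was lower there than in DHX9-1271 (-0.26, limma adjusted p = 0.0224). With DHX9-1271 the Pde9a fold was -0.18 (limma adjusted p = 0.054). Pde11a, which cleaves both cyclic AMP and cyclic GMP, fell with DHX9-837 (-0.38, SE 0.099, limma adjusted p = 0.0317), and 5 of the 9 fits without 1 array did not keep that call. Of the other 8 phosphodiesterase genes 0 were called by limma in any comparison, and Pde5a, the main cyclic GMP phosphodiesterase of smooth muscle, had folds of 0.05 with DHX9-1271 and 0.08 with DHX9-837.

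The scaffolds that tie receptor, kinase and transporters together at the apical membrane differed among themselves. Pdzd3, which encodes a PDZ protein that binds guanylate cyclase C, fell with DHX9-837 (-0.44, SE 0.082, limma adjusted p = 0.00863), with log2 levels of 6.43, 6.41 and 6.64 there, 6.87, 6.64 and 6.73 in DHX9-1271, and 6.84, 6.97 and 6.98 in control. Nherf1 (Slc9a3r1 in the files) fell with DHX9-837 (-0.30, SE 0.072, limma adjusted p = 0.0259) and Nherf2 (Slc9a3r2), which links the Prkg2 kinase to the Slc9a3 exchanger, rose (0.26, SE 0.044, limma adjusted p = 0.00579). With DHX9-1271 0 of the 3 tested scaffold genes were called by limma (2 at an unadjusted p under 0.05). The Nherf1 call with DHX9-837 ended in 5 of the 9 fits without 1 array. With the 3 arrays highest in small intestine markers left out, Pdzd3 (-0.50, limma adjusted p = 0.0894), Nherf1 (-0.29, limma adjusted p = 0.286) and Nherf2 (0.31, limma adjusted p = 0.064) were not called with DHX9-837.

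**Figure D4:**
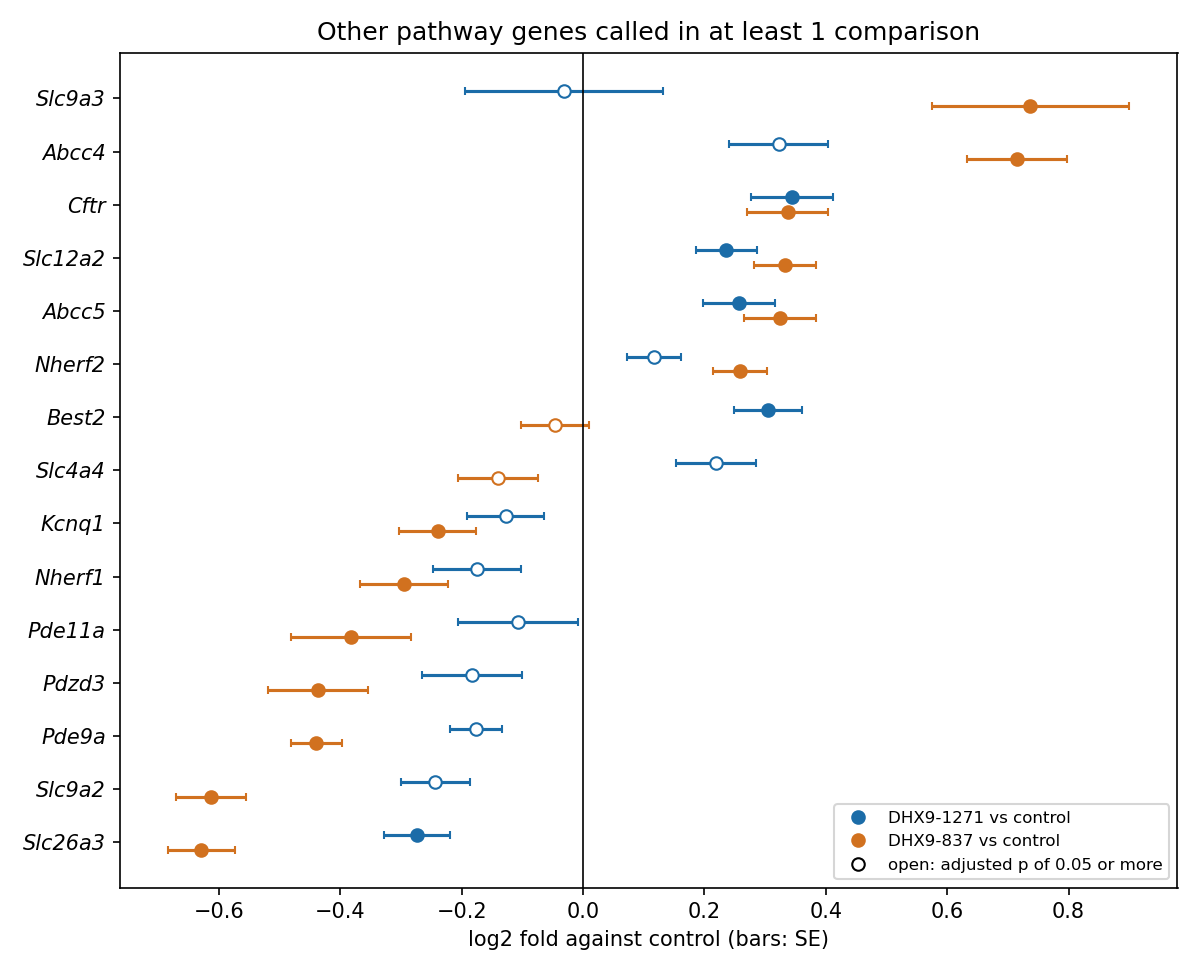
Log2 fold against control (x axis, bars are the SE) for the 15 pathway genes called in at least 1 of the 4 comparisons (y axis); colours are the hairpins and open points have an adjusted p of 0.05 or more. Abcc4, Abcc5, Cftr, Slc12a2 and Nherf2 lie right of 0 with both hairpins, and Slc26a3, Slc9a2, Pde9a, Pdzd3, Pde11a, Nherf1 and Kcnq1 lie left of it.

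The groups of other ligands, other cyclases, nitric oxide synthases, cyclic GMP kinase partners and transcription factors held 19 tested genes. Of the 19, limma called 0 in any comparison. Over all genes tested it called 4.41% with DHX9-1271, 15.6% with DHX9-837, 13.5% with both hairpins and 1.90% between the hairpins. At an unadjusted p under 0.05, 3 of the 19 were up and 1 down in both hairpins against control. The members of smallest p were Nppc, the C-type natriuretic peptide gene (-0.16, SE 0.072), Gucy1a1, a subunit of the nitric oxide receptor (0.18, SE 0.063), Nos2 (0.08, SE 0.077) and Lrmp (0.18, SE 0.085), an older symbol of Irag2. Among the transcription factors, Hnf4a had a log2 fold of 0.08 (SE 0.046) and Cdx2, a factor known to act on Gucy2c, one of 0.02 (SE 0.055) in the same comparison.

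Markers of the cells that make these peptides were set beside the results. Of 15 surface colonocyte genes 0 rose and 6 fell in both hairpins against control by limma, where 5.33% of all genes fell, among them Slc37a2 (-0.85), Slc26a3 (-0.45) and Mall (-0.42). Their mean log2 level was 11.04 to 11.28 in DHX9-1271, 11.02 to 11.33 in DHX9-837 and 11.25 to 11.47 in control, and Guca2a was lower in the same groups. Of 12 goblet cell genes 3 rose and 1 fell, where 8.13% of all genes rose: Creb3l1 (0.35) and Agr2 (0.52) were up, as was Ern2 (0.25), and Tff3 (-0.28) was down. The goblet cell mean was 10.86 to 10.91 in DHX9-1271, 10.77 to 10.80 in DHX9-837 and 10.56 to 10.92 in control. Of 10 enteroendocrine genes Gcg (0.54) and Sct (0.23) rose and Chga (-0.33) fell, with a list mean of 7.57 to 7.65 in DHX9-1271, 7.64 to 7.73 in DHX9-837 and 7.52 to 7.64 in control. Of 7 tuft cell genes 0 were called in both hairpins against control (1 up at an unadjusted p under 0.05), and their mean was 6.40 to 6.56 in DHX9-1271, 6.20 to 6.28 in DHX9-837 and 6.29 to 6.55 in control. List means cover every listed gene with a probe set, tested or not. The part of these cell types in the levels of the 4 genes was not tested.

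Other markers were as follows in both hairpins against control, where 8.13% of all genes rose and 5.33% fell. Of 10 crypt stem cell genes 4 rose and 0 fell by limma (0 at an unadjusted p under 0.05). Cd44 (0.51), Myc (0.50) and Ascl2 (0.26) were up. Folds were positive in 8 of the 10 and negative in 2. Without the 3 arrays highest in small intestine markers the folds were 0.44 for Cd44, 0.52 for Myc and 0.25 for Ascl2. Those of Lgr5 (-0.24) and Smoc2 (-0.27) were negative in that setting, so the stem cell genes did not all move alike. With DHX9-837 alone the Smoc2 fold was -0.50 there. The Ascl2 call did not hold. Of 8 general epithelial genes Krt18 (0.66) and Krt19 (0.24) rose and Cldn3 (-0.29) fell. Of 6 B cell genes 4 rose, Pax5 (0.45), Cd22 (0.63) and Ms4a1 (0.71) among them, and the B cell mean was 7.79 to 8.33 in DHX9-1271, 7.89 to 8.29 in DHX9-837 and 7.50 to 7.63 in control. With the 3 arrays highest in small intestine markers left out, the folds were 0.38 for Pax5, 0.53 for Cd22 and 0.52 for Ms4a1. The B cell calls did not hold there, and fewer calls were made over all genes as well. The surface colonocyte genes named above had folds of -0.96 (Slc37a2), -0.45 (Slc26a3) and -0.39 (Mall) in that setting. With all arrays the B cell mean was higher in every hairpin array, as Prkg2 was on average. Of single genes tested, 10.7% had every hairpin array above every control array. The part of B cells in the Prkg2 levels was not tested. Of 7 smooth muscle genes 0 were called by limma (0 at an unadjusted p under 0.05), and of 7 retinal genes, listed because the similarly named Guca1a and Guca1b act on retinal cyclases, 3 were tested and 0 called (0 at an unadjusted p under 0.05).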

How the data were processed

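Large intestine RNA of 9 samples carried a biotin label and was measured on Affymetrix Mouse Gene 2.0 ST chips, per the labels. The deposited values are log2 expression levels made by the authors with RMA, using oligo 1.30.0 in R 3.1.1, per the submitters' processing notes. The sources used here do not name the probe set definition or the genome build, and RMA's quantile step would hide a shift of most transcripts in 1 direction. Precision is limited by the small number of arrays.

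Of 24973 probe sets, 24015 had 1 symbol in the platform's probe table, 0 several and 958 none; 23922 matched the RefSeq gene table (GRCm38.p6). Each of 24011 genes was represented by its probe set of highest mean. Genes under the 30th percentile of mean log2 level (5.28) were left out. Tests came from limma 3.58.1 (R 4.3.3), fitting a mean per group over 9 arrays (6 residual and 2.84 prior degrees of freedom), two-sided p-values and Benjamini-Hochberg adjustment over the 16808 genes tested. Calls needed an adjusted p under 0.05. The fold of both hairpins is the mean of their group means minus the control mean. The fit was tested on simulated data.

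The 4 genes and all lists were chosen with earlier results of these data known. Named genes were the 4, every pathway gene called in at least 1 comparison, the member of smallest p of each role group without a call, up to 3 markers of smallest p per list, the neighbours, and the 3 nearest patterns, leaving out predicted genes, clone names, small RNAs and antigen, olfactory or vomeronasal receptors. Car1, Ern2, Pde5a, Sis, Fabp6, Apoa1, Ada and Cdx2, and the markers in which the hairpins differed, were named outside that rule after their values were seen. Irag1, Irag2, Nherf1 and Nherf2 were matched through 4 older symbols. Figures used matplotlib 3.10.9 in Python 3.11.15.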

Additional observations from a re-analysis of the deposited data

Results flagged for a closer look

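In 9 genes of the pathway and marker lists the effects of the hairpins against control differed by limma's test of the difference itself. That test, DHX9-837 minus DHX9-1271, called 1.90% of all genes tested. Slc37a2, a sugar phosphate exchanger gene of surface colonocytes, was lower in DHX9-837 by -1.07 on the log2 scale (SE 0.079, limma adjusted p = 0.00194). Aqp8, a colonocyte water channel gene, differed by -0.67 (SE 0.12, limma adjusted p = 0.0345). Slc26a3 differed by -0.36 (limma adjusted p = 0.0196), Slc9a2 by -0.37 (limma adjusted p = 0.02), Best2 by -0.35 (limma adjusted p = 0.0218), Pde9a by -0.26 (limma adjusted p = 0.0224) and Slc4a4 by -0.36 (limma adjusted p = 0.0345). Krt18, a keratin gene of simple epithelium, was higher in DHX9-837 by 0.34 (SE 0.059, limma adjusted p = 0.0312). Sst, the somatostatin gene, was higher there by 0.64 (SE 0.13, limma adjusted p = 0.0458). Of the 9 fits without 1 array, 5 did not keep the calls of Slc26a3 and Slc9a2. Those of Pde9a, Slc4a4 and Best2 ended in 6 of the 9. Without the 3 arrays highest in Sis, Fabp6 and Apoa1, which leaves 1 array in DHX9-837, Slc37a2 differed by -1.17 and Aqp8 by -0.46. Krt18 then differed by 0.40 and Sst by 0.50. The differences were -0.29 for Slc26a3, -0.32 for Slc9a2, -0.45 for Best2, -0.25 for Pde9a and -0.48 for Slc4a4. Sizes alone are given for that setting, and the calls did not all hold in it.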

How the results depend on the processing

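The folds of the 4 genes moved by less than 1 SD of the replicate spread under the other level filters, scaling, moderation and probe set rule and with the arrays compared alone, but 7 of their 16 folds moved further without the 3 arrays named below. Leaving out 1 array gave DHX9-1271 folds of -0.29 to -0.26 for Guca2a, 0.023 to 0.33 for Guca2b, -0.077 to -0.0029 for Gucy2c and 0.41 to 0.61 for Prkg2. It gave DHX9-837 folds of -0.31 to -0.25, 1.04 to 1.37, -0.25 to -0.17 and 0.26 to 0.46, and folds of both hairpins of -0.29 to -0.26, 0.54 to 0.85, -0.16 to -0.087 and 0.33 to 0.54, in the same order of genes. Between the hairpins the ranges were -0.033 to 0.020, 0.85 to 1.19, -0.20 to -0.15 and -0.25 to -0.061. Without the 3 arrays highest in Sis, Fabp6 and Apoa1, chosen after the data were seen, DHX9-837 folds were -0.22 for Guca2a and 0.082 for Prkg2, the Prkg2 fold of both hairpins was 0.25, and the hairpins differed by 0.049 (Guca2a), 0.75 (Guca2b), -0.11 (Gucy2c) and -0.33 (Prkg2).

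Pathway genes called with DHX9-1271 numbered 1 up and 0 down with no level filter, with the arrays compared alone, with the replicate number as a block and without those 3 arrays, 2 up and 3 down with cyclic loess, and 3 down with the filter at the median gene or a trend. Without those 3 arrays 1 rose and 4 fell with DHX9-837. Between the hairpins 3 fell with no level filter, 1 with the replicate block and 0 without those 3 arrays, and 2 rose with the median filter, cyclic loess or a trend. Leaving out 1 array gave 0 to 4 up and 0 to 2 down (DHX9-1271), 5 to 7 and 4 to 6 (DHX9-837), 5 to 7 and 3 to 5 (both hairpins), and 0 up and 0 to 5 down (between hairpins). The cause of these shifts was not tested. Shares over all genes are not given for most of these settings. A change in the list alone therefore cannot be told from one over all genes. Same-numbered arrays of different groups had correlations of their deviations from the group means of -0.366 to 0.261. With 3 arrays a group, these values cannot show whether the numbers pair the samples. In this balanced design the replicate block cannot change a fold, and it bears on the counts above and on the SEs. With DHX9-1271 the block took the SE from 0.114 to 0.0745 for Prkg2 and from 0.0458 to 0.0511 for Guca2a. Both hairpins against control uses all arrays, so no fit of the arrays compared alone was made for it.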
